A study of Mus musculus with 6 samples.

Results

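Mpo, Prtn3, Fcnb and Cebpe are 4 genes of the promyelocyte, the stage of neutrophil development that fills the first granules. They were taken by gene symbol from a deposited table of 9295 genes, and all 4 were found (gene IDs 17523, 19152, 14134 and 110794). RNA had been extracted from bone marrow of mice with acute myeloid leukemia, with the cell type given as leukemia. The 3 samples labelled KO have the genotype PAPOLA KO. The 3 samples labelled Con have the genotype PAPOLA flox/flox, in which the gene carries recombination sites. Both groups share the leukemia. The labels do not give how the leukemia was raised, the Cre driver, the age of the mice or any sorting of cells. Nor do they say whether samples of 1 group are separate mice, and p-values may therefore reflect technical spread alone. Papola encodes poly(A) polymerase alpha, the nuclear enzyme that tails newly made messenger RNA, and the design asks what its loss does in this leukemia.

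Neutrophils are built in stages. At the promyelocyte stage the cell makes primary (azurophil) granules, loaded with myeloperoxidase and a set of serine proteases, and later stages switch to secondary and tertiary granules. Myeloperoxidase, the product of Mpo, is a heme enzyme that turns hydrogen peroxide and chloride into hypochlorous acid. Prtn3 encodes proteinase 3, a serine protease close to neutrophil elastase, whose gene Elane lies next to it. Fcnb encodes ficolin B, a lectin of myeloid cells that recognises acetylated sugars on microbes. Cebpe encodes C/EBP epsilon, the transcription factor needed for the passage from promyelocytes to cells with secondary granules. PU.1, C/EBP factors and MYB are known to act together on the promoters of primary granule genes.

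Because these genes are known for shared promoter control, the 250 bases before the start of transcription are shown for Mpo, Prtn3 and Fcnb, with Elane for comparison with its neighbour. RefSeq promoter sequences were matched for 3 of the 4 genes (build GRCm38.p6), and that for Cebpe was not matched. The sequences lie at chr11:87793534-87793783 on the plus strand (Mpo), chr10:79879417-79879666 on the plus strand (Prtn3), chr10:79886062-79886311 on the plus strand (Elane) and chr2:28084879-28085128 on the minus strand (Fcnb). Capitals mark AGGAAGT, the letters of a PU.1 or other ETS factor motif.
Mpo: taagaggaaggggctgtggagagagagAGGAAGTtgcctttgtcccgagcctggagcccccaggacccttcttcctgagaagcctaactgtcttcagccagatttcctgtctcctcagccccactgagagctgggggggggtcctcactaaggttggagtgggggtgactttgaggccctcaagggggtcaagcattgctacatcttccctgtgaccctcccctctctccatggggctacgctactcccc
Prtn3: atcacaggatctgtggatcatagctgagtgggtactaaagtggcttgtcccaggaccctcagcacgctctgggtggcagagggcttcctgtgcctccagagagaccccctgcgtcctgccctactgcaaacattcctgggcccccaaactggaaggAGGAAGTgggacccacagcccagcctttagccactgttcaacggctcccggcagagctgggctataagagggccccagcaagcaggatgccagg
Elane: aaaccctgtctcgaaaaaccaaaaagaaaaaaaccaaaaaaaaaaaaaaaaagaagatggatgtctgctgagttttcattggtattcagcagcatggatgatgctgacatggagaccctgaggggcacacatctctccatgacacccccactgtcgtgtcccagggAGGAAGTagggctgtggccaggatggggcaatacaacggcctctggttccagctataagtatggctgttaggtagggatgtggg
Fcnb: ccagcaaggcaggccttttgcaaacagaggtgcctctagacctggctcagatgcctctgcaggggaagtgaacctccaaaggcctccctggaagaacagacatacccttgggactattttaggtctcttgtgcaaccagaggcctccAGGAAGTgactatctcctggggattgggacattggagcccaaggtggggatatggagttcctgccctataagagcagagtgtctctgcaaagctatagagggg

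AGGAAGT was found once in each of the 4 sequences shown, on the strand of the gene. It began 223 bases before the start in Mpo, 94 in Prtn3, 84 in Elane and 103 in Fcnb. Of 32851 promoter windows of the same length, 7.69% held it on either strand. Prtn3 and Elane also shared AACGG, the core letters of a MYB motif, 55 and 50 bases before the start, and TATAA, 32 and 31 bases before it. AACGG was in 14.5% of all windows and TATAA in 22.8%. Fcnb held TATAA 37 bases before the start and the C/EBP letters TTGCNNAA at 235 and 123 bases, both on the opposite strand. TTGCNNAA was in 9.56% of windows and was not found in Mpo, Prtn3 or Elane. The shorter C/EBP letters GCAAT stood 56 bases before the start in Mpo (opposite strand) and 57 in Elane, and in 23.1% of windows. Both strands were searched for these 5 motifs, and no 2 matches in the sequences shown overlapped. A match is a description of the letters only.

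Counts are estimated reads per gene, and summed to 8875022 to 9768143 per library in KO and to 11253932 to 11436216 in Con. The sums cover the genes of the table and are not the full sequencing depth. Papola itself was not lower in the samples labelled KO, with 339 ± 23.8 CPM (counts scaled to a fixed library total) there and 291 ± 6.42 CPM in Con (SD, n = 3 each). Its log2 fold change was 0.22 (SE 0.08, adjusted p = 0.0291), and it was -0.13 (adjusted p = 0.187) when libraries were scaled by their totals alone. Without any 1 library other than KO replicate 3 its adjusted p was 0.0614 to 0.0814. Reads over the deleted exons were not analysed here, so every direction below rests on the labels. KO and Con stand for the libraries labelled so. Con replicates 2 and 3 were far closer to each other than any other pair of a group (chi-square per degree of freedom 1.68, against 17.7 to 23.7), but still differed beyond counting noise. CPM are scaled with TMM factors, fold changes are log2 of KO over Con, and p-values are from edgeR's quasi-likelihood test with Benjamini-Hochberg adjustment over 8358 genes tested, with 0.05 as the threshold.

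All 4 genes were higher in KO than in Con, by 9.5-fold for Mpo, 11-fold for Cebpe, 21.2-fold for Prtn3 and 112.6-fold for Fcnb. No library of either group reached into the range of the other for any of the 4. The 2 groups differed widely, so this has to be read against the whole table. There 82% of the genes tested were called in either direction, 39.6% were called higher in KO, 40.5% had all 3 KO libraries above all 3 Con libraries, and 6.48% were called and at least 8-fold higher. With library totals as the only scaling 2488 genes were higher and 4476 lower, against 3310 and 3544 here. All 4 genes were in the class at least 8-fold higher, but they were chosen with these results known. The smallest count of any of them in any library was 34, so each passed the filter on low counts in both groups. In bulk samples, fewer cells of a type and less RNA per cell cannot be told apart.

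Mpo had 24608, 23313 and 17399 counts in KO replicates 1, 2 and 3, and 3882, 3485 and 3421 counts in Con replicates 1, 2 and 3. On the CPM scale these were 2876, 2876 and 2239 in KO, and 294.1, 273.9 and 273.6 in Con. KO replicate 3 was the lowest of its group, yet stood 7.61-fold above the highest Con library. The log2 fold change was 3.25 (SE 0.12, adjusted p = 2.35e-08). By its mean CPM, Mpo ranked 38 among the genes tested in KO and 527 in Con. It was thus an abundant message in both groups, although its gain was the smallest of the 4.

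Prtn3 had 10309, 8157 and 4984 counts in the 3 KO libraries and 522, 581 and 617 in the 3 Con libraries. Scaled, it stood at 1205, 1006 and 641.4 CPM in KO and at 39.54, 45.66 and 49.34 CPM in Con. It varied more within KO than the others, with a highest library 1.88-fold above the lowest, against 1.25-fold within Con. The log2 fold change was 4.41 (SE 0.24, adjusted p = 3.14e-07).

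Fcnb had 3759, 2876 and 2066 counts in KO and only 34, 41 and 45 in Con. These correspond to 439.2, 354.8 and 265.9 CPM in KO and to 2.576, 3.222 and 3.599 CPM in Con. The lowest KO library was 73.9-fold above the highest Con library, a gap wider than for the other 3 genes. The log2 fold change was 6.82 (SE 0.23, adjusted p = 2.35e-08), which placed the gene at rank 103 among 8358 genes by size of increase. The Con level rests on few reads, so the size of this fold is less certain than its direction.

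Cebpe had 2290, 1888 and 1461 counts in KO and 266, 274 and 261 in Con. Its levels were 267.6, 232.9 and 188 CPM in KO and 20.15, 21.53 and 20.87 CPM in Con. The Con libraries lay within 1.07-fold of each other and the KO libraries within 1.42-fold. The log2 fold change was 3.46 (SE 0.14, adjusted p = 2.93e-08).

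**Figure D1:**
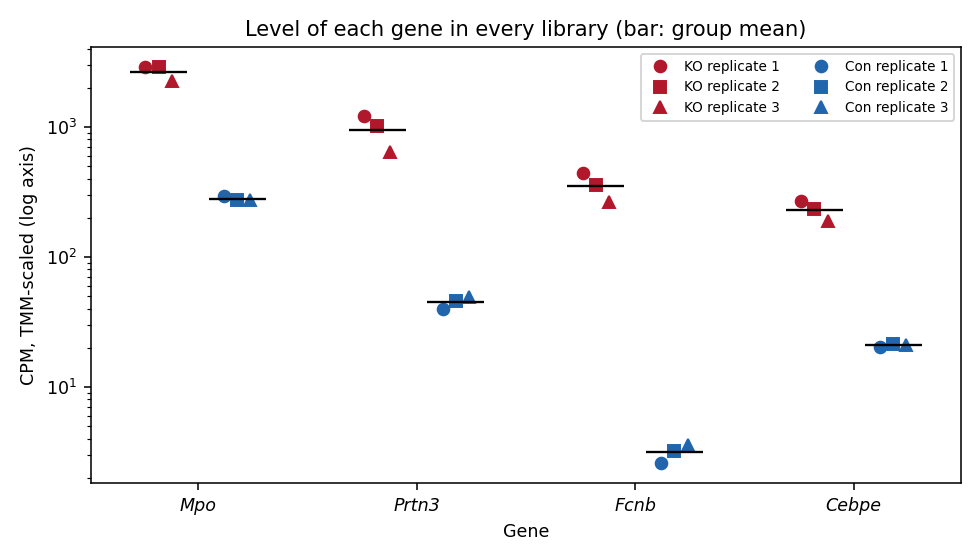
Points give the TMM-scaled CPM of Mpo, Prtn3, Fcnb and Cebpe in each of the 3 KO and 3 Con libraries on a log axis, with the marker showing the replicate and the bar the group mean. The KO points lie above the Con points for each gene, and KO replicate 3 is the lowest KO point each time, as for Prtn3 at 641.4 CPM against 1205 and 1006 CPM.

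To compare levels between genes, CPM were divided by transcript length in kilobases. On that scale KO had 969 ± 134 for Mpo, 928 ± 279 for Prtn3, 302 ± 74.1 for Fcnb and 185 ± 32.2 for Cebpe (SD, n = 3). Con had 102 ± 4.27 for Mpo, 43.8 ± 4.83 for Prtn3, 16.8 ± 0.557 for Cebpe and 2.68 ± 0.442 for Fcnb. Mpo and Prtn3 did not differ beyond their spread in KO, while in Con Mpo was higher by more than the spread. Fcnb and Cebpe changed places, with Fcnb above Cebpe in KO and below it in Con.

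Ratios between 2 genes within a library do not depend on how libraries are scaled, so they compare the moves of the genes without that step. The log2 ratio of Fcnb to Mpo counts was -2.71, -3.02 and -3.07 in KO and -6.84, -6.41 and -6.25 in Con, a difference of 3.56. Fcnb over Cebpe was 0.72, 0.61 and 0.5 in KO and -2.97, -2.74 and -2.54 in Con, so Fcnb had more reads than Cebpe in each KO library and fewer in each Con library. Prtn3 over Mpo was -1.26, -1.52 and -1.8 in KO and -2.89, -2.58 and -2.47 in Con, a difference of 1.13. The pair that kept closest to a fixed ratio was Cebpe and Mpo, at -3.54 ± 0.1 in KO and -3.75 ± 0.1 in Con (SD, n = 3 each), a difference of 0.21. In each of the 6 pairs the groups did not overlap. For Cebpe over Mpo they were apart only narrowly, with -3.63 in KO replicate 2 and -3.67 in Con replicate 2. An exact two-sided permutation test gave p = 0.1 for every pair, which is the smallest that 3 against 3 libraries allow, and 0.1 after adjustment over the 6 pairs. These tests therefore cannot pass 0.05.

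**Figure D2:**
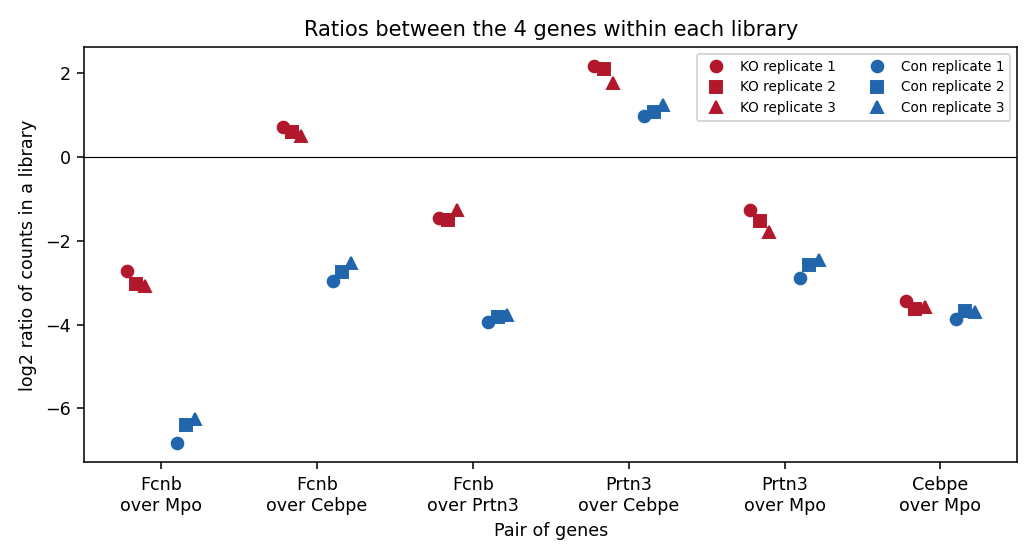
The log2 ratio of the counts of 2 genes is plotted for each library, for the 6 pairs of the 4 genes, with KO in red and Con in blue. Fcnb over Mpo shows the widest gap, 3.56 between the group means, and Cebpe over Mpo the narrowest, 0.21.

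The primary granule enzymes did not gain evenly, and the one that stood apart was cathepsin G. Elane, neutrophil elastase, had 1413, 1274 and 894.9 CPM in KO and 82.12, 108.5 and 111.2 CPM in Con (log2 fold change 3.57, SE 0.20, adjusted p = 3.18e-07). Prss57, a related granule protease, rose by 2.74 (SE 0.23, adjusted p = 5.51e-06). Ctsg, cathepsin G, had 387.7, 337.5 and 207.4 CPM in KO and 221, 193.9 and 199.7 CPM in Con. Its groups overlapped, since the lowest KO library lay below the highest Con library. Its log2 fold change of 0.60 (SE 0.20, adjusted p = 0.0188) lost its call with library totals as the only scaling (0.25, adjusted p = 0.304), and without any 1 of KO replicates 1 and 2 and Con replicates 2 and 3 (adjusted p = 0.0573 to 0.0665).

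The make-up of this enzyme set, computed after these values were seen, differed between the groups, with a smaller part for cathepsin G in KO. Per kilobase of transcript, Ctsg made up 9.5%, 9.14% and 8.05% of the summed level of Mpo, Elane, Prtn3, Ctsg and Prss57 in KO, and 48.6%, 42.9% and 43% in Con. Prtn3 made up 26.6 ± 2.3% in KO and 9.59 ± 0.98% in Con (SD, n = 3 each). Elane made up 35.2 ± 0.12% in KO and 22.4 ± 3.5% in Con, and Mpo 28.6 ± 3.0% in KO and 22.4 ± 1.1% in Con. The sum of the 5 itself was 4072, 3686 and 2572 CPM per kilobase in KO and 453.9, 451 and 463.2 in Con. Within a library the log2 ratio of Ctsg to Mpo counts was -3.14 ± 0.27 in KO and -0.45 ± 0.043 in Con, with no overlap (exact permutation p = 0.1, the smallest possible, two-sided). Prtn3 and Elane are related in sequence, and reads could be shared between them by the counting. The deposited counts of Prtn3 are whole, which does not show how such reads were assigned. Sharing of reads was not tested.

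**Figure D3:**
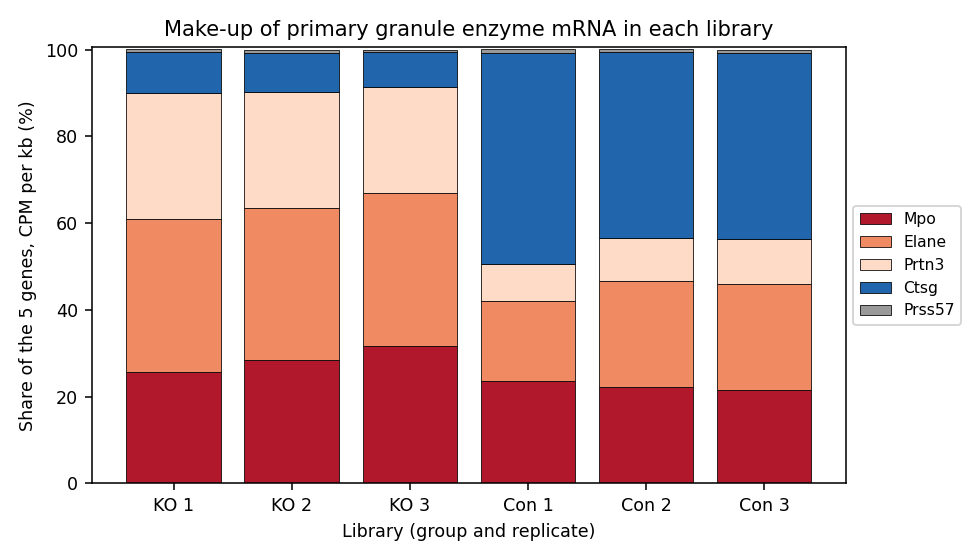
Each bar is 1 library, the 3 KO libraries on the left and the 3 Con libraries on the right, and its segments are the shares of 5 primary granule enzymes in their summed CPM per kilobase of transcript. Ctsg, in blue, takes 8.05% to 9.5% of the KO bars and 42.9% to 48.6% of the Con bars.

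The wider list of primary granule and promyelocyte genes also split. Of 20 genes listed, 17 were in the table and tested, 13 of them higher and 4 lower in KO, with a median log2 fold change of 1.73. The list holds Mpo, Prtn3 and Fcnb, and the 14 other genes had 10 higher and 4 lower, with a median of 1.45. Over all genes tested, 39.6% were higher, 42.4% lower and the median was -0.06. Clec12a, an inhibitory lectin receptor of myeloid cells, rose by 4.64 (SE 0.12), and Serpinb1a, which inhibits elastase, proteinase 3 and cathepsin G, rose by 2.16 (SE 0.14). The 4 that fell were Muc13, a membrane mucin (-2.38, SE 0.12), Cst7, the protease inhibitor cystatin F (-2.20, SE 0.15), Gstm1, a glutathione transferase (-1.53, SE 0.15), and the membrane protein gene Cd63 (-1.30, SE 0.10). Serpinb1a, Cst7, Gstm1 and Cd63 are named after their values were seen. Cd63 is also known from lysosomes of other cells, macrophages among them. Nkg7, a granule membrane protein also of NK cells, was at 0.61 (SE 0.20, adjusted p = 0.0196), a call lost with library totals as the only scaling (0.25, adjusted p = 0.321) and without any 1 of the same 4 libraries (adjusted p = 0.0537 to 0.0706).

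**Figure D4:**
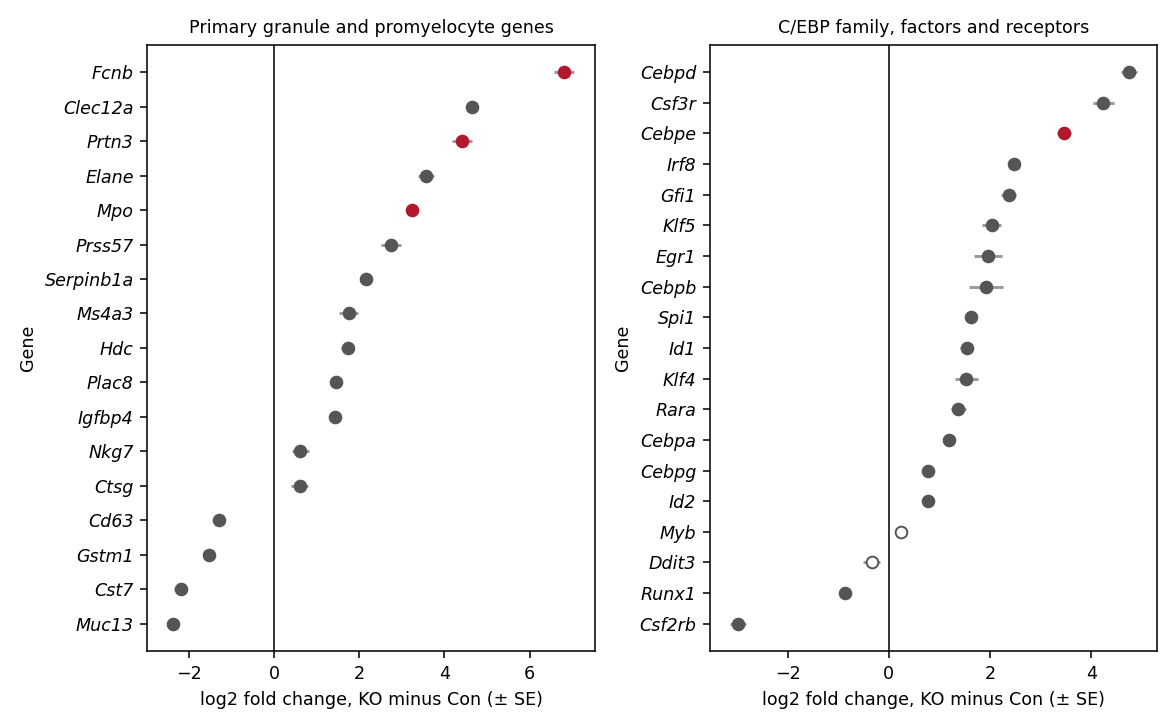
Log2 fold changes, KO minus Con, are shown with their SE for the primary granule and promyelocyte list (left) and for the C/EBP family with other granulocyte factors and receptors (right), with Mpo, Prtn3, Fcnb and Cebpe in red and open circles for genes that did not pass the test. Fcnb leads the left panel at 6.82, and Cebpe at 3.46 stands behind Cebpd and Csf3r on the right.

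Among the C/EBP transcription factors, Cebpe was not the one with the largest change. Of the 6 genes of the family 5, Cebpe among them, were higher in KO and 1, Ddit3, did not pass the test (-0.34, SE 0.17, adjusted p = 0.0893), though it passed as lower under 4 of 15 alternatives, without KO replicate 3 among them (-0.58, adjusted p = 0.00062). Cebpd, C/EBP delta, had 237.6, 184.3 and 171 CPM in KO and 7.272, 7.858 and 6.958 CPM in Con (log2 fold change 4.74, SE 0.15). Cebpa, C/EBP alpha, which acts before Cebpe in granulocyte development, rose less, with 100.7, 122.1 and 116.7 CPM in KO and 48.71, 51.63 and 49.18 CPM in Con (1.18, SE 0.09). Cebpb, C/EBP beta, the factor of emergency granulopoiesis and of macrophages, had 386.8, 443.2 and 523.1 CPM in KO and 55.53, 132 and 171.1 CPM in Con (1.92, SE 0.34), with Con libraries that spread 3.08-fold. Cebpg rose by 0.78 (SE 0.07). Without Cebpe, 4 of 5 family genes were higher and none lower, beside 39.6% higher and 42.4% lower over all genes tested.

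Of 15 granulocyte factors and receptors tested, 12 rose and 2 fell (median 1.54). Without Cebpe, which the list holds, 11 of 14 rose and 2 fell (median 1.53), against 39.6% higher, 42.4% lower and a median of -0.06 over all genes tested. Csf3r, the receptor of granulocyte colony-stimulating factor, rose to 1493 ± 374 CPM in KO, against 79.2 ± 7.41 CPM in Con (log2 fold change 4.24, SE 0.20). Csf2rb, the beta chain shared by the receptors for GM-CSF and interleukin-3, fell to 279 ± 63.7 CPM in KO, against 2197 ± 118 CPM in Con (-2.98, SE 0.16). The 2 receptor genes thus moved in opposite directions. Irf8, a factor that favours monocytes over granulocytes, rose by 2.47 (SE 0.12). It is counted among the 12 that rose, so that count is not of granulocyte factors alone. Named after their values were seen, Gfi1, a repressor needed for granulocytes, rose by 2.37 (SE 0.15) and Spi1, which encodes PU.1, by 1.62 (SE 0.09), while Runx1 fell by 0.86 (SE 0.11). Myb was at 0.25 (SE 0.11, adjusted p = 0.0665), a value that was -0.11 with library totals as the only scaling and that passed the threshold under 5 of 15 alternatives.

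Genes of the next stage rose as well. All 16 late granule and maturation genes tested were higher in KO, beside 39.6% higher and 42.4% lower over all genes tested. Their median was 5.38, beside -0.06, and they summed to 191900 to 217700 CPM in KO and to 10960 to 13380 CPM in Con. The count was 15 with library totals as the only scaling and without KO replicate 1 or 3, since Itgam, an integrin gene of myeloid cells (0.40, SE 0.13, adjusted p = 0.017), was then at 0.04, 0.34 and 0.34 (adjusted p = 0.73, 0.0534 and 0.0548). Among these genes is Lcn2, lipocalin 2, a secondary granule protein, with a log2 fold change of 3.15 (SE 0.10), close to that of Mpo.

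Genes that serve the products of the 4 genes moved in both directions. For heme synthesis and the chaperones that fold myeloperoxidase, 7 of 11 genes rose and 4 fell (median 0.88). The shares over all genes tested were 39.6% higher and 42.4% lower (median -0.06). Uros (2.06, SE 0.12) and Fech (1.86, SE 0.13), enzymes of heme synthesis, rose. Alas1, the first enzyme of heme synthesis outside red cells, named after its values were seen, fell by 1.78 (SE 0.21), and Calr, calreticulin, a chaperone of myeloperoxidase, fell by 1.54 (SE 0.10). The other chaperone genes of the list, Canx (-1.18, SE 0.08) and Pdia3 (-0.78, SE 0.09), named after their values were seen, fell too. The list thus held 2 opposite parts, and its median describes neither. Alas1 alone fell among the heme enzymes, while the chaperones all fell. Erythroid markers, whose cells make heme, rose in 11 of 11 genes tested in the same libraries (10 with library totals as the only scaling), to 17160 to 24290 CPM in KO, against 129.1 to 208.2 CPM in Con, and their part in the rise of the heme enzymes was not tested.

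Of 9 genes of peroxidases and of the oxidase that supplies hydrogen peroxide, 7 rose and 2 fell (median 1.73), and without Mpo 6 of 8 rose and 2 fell (median 1.73). This and the next list stand beside 39.6% higher, 42.4% lower and a median of -0.06 over all genes tested. Rac2, a subunit of the phagocyte oxidase, rose by 1.73 (SE 0.09), and Sod2, mitochondrial superoxide dismutase, fell by 2.50 (SE 0.10). In granule assembly and sorting 8 of 13 genes rose and 3 fell (median 0.67, with 5 lower when library totals were the only scaling). Rab27a (1.61, SE 0.12) and Vamp8 (1.80, SE 0.09), which act in granule release, Nbeal2, needed for granules of platelets and neutrophils (1.54, SE 0.11), and the fusion protein gene Stx11 (1.05, SE 0.07) were among those that rose.

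Of 9 protease inhibitor genes 4 rose and 4 fell (median 0.29), a split near the 39.6% higher and 42.4% lower over all genes tested. Wfdc21 (3.45, SE 0.13) and Stfa2l1 (5.02, SE 0.16) rose, and Serpinb2 (-4.76, SE 0.14) and Serpina3f (-3.0, SE 0.17) fell. Stfa2l1 belongs to the stefins, which inhibit cysteine proteases and not the serine proteases for which the list was made, and Serpinb2 inhibits plasminogen activators. Of 5 lectin complement genes 4 rose and 1 fell. The median of 6.82 is the value of Fcnb itself, and without it 3 of 4 rose and 1 fell (median 5.42). Fcna, ficolin A, the other mouse ficolin, had 57.37, 106.3 and 140 CPM in KO and 0.303, 0.4715 and 0.3999 CPM in Con (7.97, SE 0.47). It rests on 4, 6 and 5 counts in the Con libraries. Its highest KO library was replicate 3, the lowest for Fcnb, so the 2 ficolin genes ranked the KO libraries differently. C4b (6.94, SE 0.24) and C2 (3.91, SE 0.25) rose, and C3, the central complement component, was lower (-0.86, SE 0.09).

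Position was compared as a feature the choice of genes did not use. Of the 24 protein-coding genes that stand up to 3 places from the 4 genes on either side, 16 were in the table and 15 tested, of which 10 were higher and 4 lower in KO. Without Elane, a granule gene itself, 9 of 14 were higher and 4 lower, beside 39.6% and 42.4% over all genes tested. Prtn3 and Elane are direct neighbours and both rose. Mpo lies beside Lpo, which encodes lactoperoxidase, and that gene had 35, 28 and 31 counts in KO and none in Con. Its level was at least 49.3-fold higher in KO, with a floor of 3 counts for the whole Con group as the lower limit, which covers counting error only. Tspoap1, on the other side of Mpo, rose by 3.90 (SE 0.15) and Supt4a by 1.72 (SE 0.09). Both direct neighbours of Fcnb fell, Col5a1 at -1.80 (SE 0.12) and Olfm1 at -1.48 (SE 0.21). Slc7a8, an amino acid transporter gene next to Cebpe, fell by 2.72 (SE 0.17). On the other side of Cebpe, Acin1 (0.70, SE 0.10), 1700123O20Rik (0.65, SE 0.08) and Gm29776 (3.57, SE 0.57) were higher, the last on 0, 3 and 2 counts in the Con libraries.

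**Figure D5:**
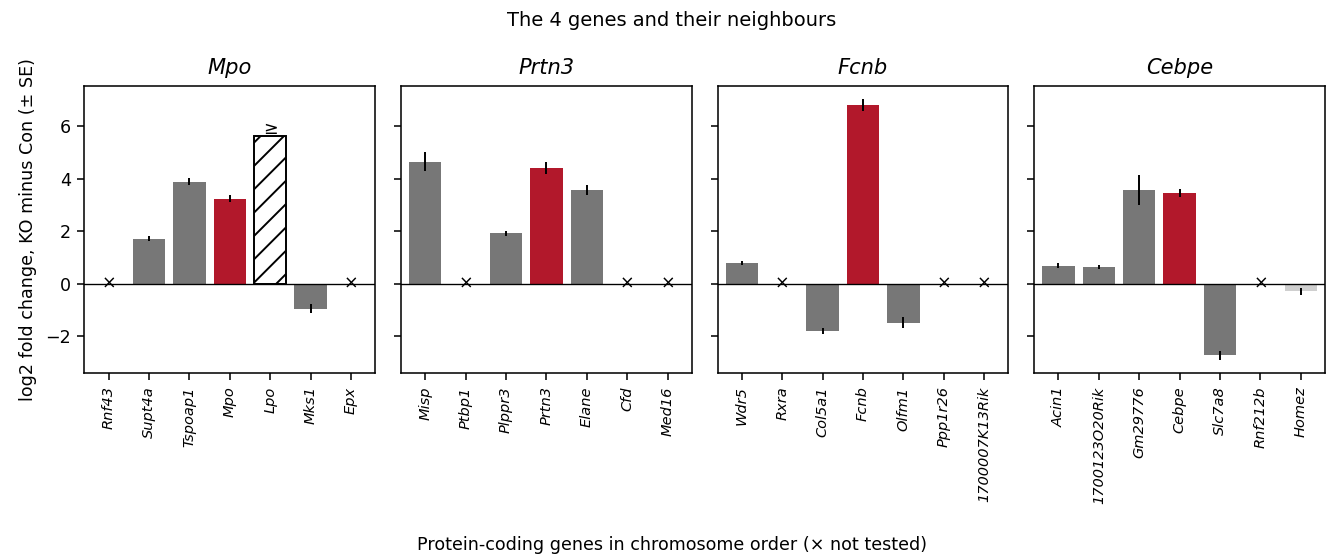
Log2 fold changes, KO minus Con, with SE are shown for Mpo, Prtn3, Fcnb and Cebpe (red) and for the 3 protein-coding genes on each side in chromosome order, with crosses for genes not tested and a pale bar for Homez, which did not pass the test. The hatched bar for Lpo is a lower bound of 5.62, and the bars directly beside Fcnb and the bar of Slc7a8 beside Cebpe point down.

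The genes with the most similar pattern were found by the root mean square difference of log2 CPM, centred per gene, over the 6 libraries among 7081 candidates. The nearest to Mpo were Hmgn2, a nucleosome-binding protein gene (0.0859), Lcn2 (0.106) and Cebpe (0.133). The nearest to Cebpe were Slfn4 (0.0823), Tmem216 (0.106) and Wfdc21 (0.12). Fcnb was nearest to S100a8, a calprotectin subunit (0.13), and to Mgam and C4b (0.258 each). Prtn3 had no gene as close, with Gda, guanine deaminase, at 0.245, Ifit1bl2 at 0.246 and Clec12a at 0.256. The measure is dominated by the size of the difference between the groups.

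Within KO, replicate 3 was the lowest for all 4 genes, at 0.779 of the mean of the other two for Mpo, 0.751 for Cebpe, 0.67 for Fcnb and 0.58 for Prtn3. The same held for 15 of 17 genes of the primary granule and promyelocyte list, where the median was 0.728, and for 12 of its 14 genes other than Mpo, Prtn3 and Fcnb (median 0.737). Over all genes tested replicate 3 was the lowest in 31.9% and the median was 1.01. In the late granule list it was lowest in 4 of 16 genes (median 0.991), and in the erythroid list in 0 of 11 (median 1.3). Low medians were also found in the protease inhibitor list (0.783, lowest in 5 of 9 genes) and the platelet list (0.774, lowest in 2 of 5). The share of all counts held by the 4 genes was 0.419%, 0.402% and 0.292% in the KO libraries and 0.0417%, 0.0383% and 0.0386% in the Con libraries. Without KO replicate 3 the log2 fold changes were 3.36 for Mpo, 4.62 for Prtn3, 6.98 for Fcnb and 3.58 for Cebpe.

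Markers of other cells moved with the groups as well. Their counts stand beside 39.6% higher and 42.4% lower over all genes tested. Monocyte and macrophage markers summed to 12060 to 15130 CPM in KO and 4644 to 6414 CPM in Con, with 6 of 11 higher and 5 lower. Lyz2, lysozyme, which is also in the late granule list, made up most of that sum, and without it the sums overlapped, at 2581 to 3331 CPM in KO and 2687 to 3447 CPM in Con. Ly6c2, Ccr2, F13a1 and Cx3cr1 were among the genes higher in KO, and the macrophage genes Adgre1, Cd68, Marco, Ms4a7 and Cd14 were lower. Stem and early progenitor markers summed to 139.5 to 222.4 CPM in KO and 729 to 767.7 CPM in Con, with 1 of 7 higher and 5 lower. Most of the Con sum came from Procr (0.944 ± 0.209 CPM in KO, 375 ± 78.9 CPM in Con) and Gata2 (41.3 ± 6.46 CPM in KO, 286 ± 54.6 CPM in Con). Flt3 was the 1 gene higher, at 75.4 ± 31.5 CPM in KO and 9.59 ± 1.85 CPM in Con. A sum without Procr and Gata2 was not taken, and the lower KO sum does not describe the other genes. Kit had 41.6 ± 4.77 CPM in KO and 56.4 ± 3.53 CPM in Con. Hoxa9 had 9.22 ± 1.75 CPM in KO and 14.3 ± 1.98 CPM in Con. Slamf1 had 4.32 ± 0.764 CPM in KO and 11.6 ± 2.22 CPM in Con. Each of them was lower by fewer CPM than Flt3 was higher, and Mecom did not pass the test. Eosinophil, basophil and mast cell markers summed to 2020 to 2213 CPM in KO and 2412 to 3076 CPM in Con, a sum over 2 opposite parts, split after the values were seen. The 6 eosinophil genes were all higher (1389 to 1696 CPM in KO, 444.1 to 508.5 CPM in Con) and the 5 basophil and mast cell genes, Gata2 among them, all lower (447.3 to 692.1 CPM in KO, 1968 to 2568 CPM in Con). B cell markers (5 of 7 higher, none lower) summed to 97.34 to 283.4 CPM in KO and 44.4 to 76.36 CPM in Con, with Vpreb2 at 0 in each Con library. The 5 higher were Vpreb1, Vpreb2, Igll1, Dntt and Rag1. Cd79b (0.57, SE 0.30, adjusted p = 0.112) and Ms4a1 (-0.50, SE 0.41, adjusted p = 0.288) did not pass the test, and they made up most of the Con sum. T and NK cell markers (9 of 10 higher, 1 lower) summed to 210 to 226.6 CPM in KO and 297.7 to 499.1 CPM in Con, with Ncr1 at 0 in each Con library. Gzmb, granzyme B, at 7.10 ± 0.768 CPM in KO and 303 ± 96.7 CPM in Con (SD, n = 3 each), alone turned that sum, and without it the other 9 summed to 203.2 to 220 CPM in KO and 53.1 to 84.77 CPM in Con. Platelet markers (3 of 5 higher, 1 lower) summed to 134.2 to 258.6 CPM in KO and 204.2 to 235.8 CPM in Con, and stromal and endothelial markers (6 of 7 higher, 1 lower) to 329.9 to 531.1 CPM in KO and 381.6 to 386.2 CPM in Con. In both lists the 1 lower gene made up most of the Con sum. It was Vwf for platelets, at 22.5 ± 6.03 CPM in KO and 184 ± 19.8 CPM in Con. For stroma and endothelium it was Pecam1, at 79.3 ± 12.7 CPM in KO and 371 ± 5.27 CPM in Con. Sums without Vwf and Pecam1 were not taken, so the overlap of these sums does not describe the other genes. The part of these cells in the differences of Mpo, Prtn3, Fcnb and Cebpe was not tested.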

How the data were processed

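The authors' deposited table gives estimated counts of reads per gene for 6 libraries, 1 column per library and not scaled, per the file headers. RNA was TRIzol-extracted and made into libraries with a BGI mRNA kit, per the labels' protocols. No aligner or counter is named in the sources used here. GRCh38, a human build, is listed per the submitters' processing notes, while IDs and symbols are mouse. Fractional counts occur in 1449 of 9295 genes, and counts were rounded before testing (all counts of the 4 genes were whole). Column totals ran from 8875022 to 11436216, and precision is limited by counting for genes with few reads.

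KO was compared with Con by edgeR 4.0.16 in R 4.3.3 (TMM, filterByExpr, robust quasi-likelihood fit, no covariate), adjusted over 8358 genes. SE is the absolute log2 fold change over the square root of F. The fit was also run on simulated data in which most genes were unchanged. These data differ from that, so the simulation does not test the scaling used here. Alternatives were DESeq2 1.42.0, limma-voom (limma 3.58.1), 3 scalings, no filter, at least 50 counts in 3 libraries, a replicate block, Con replicates 2 and 3 summed, and each library left out. Transcript lengths are from GENCODE M21, matched to RefSeq, and promoters from RefSeq (GRCm38.p6). 0 value columns were left unused.

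The 4 genes and the lists were chosen with earlier results of these data known. Named genes are these 4, Papola, the C/EBP family, paralogs, up to 4 genes per list by smallest adjusted p, defining markers and nearest patterns (mean log2 CPM of at least 2). Neighbouring genes were added after the data were seen. Some genes the rule takes are not reported here.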

Additional observations from a re-analysis of the deposited data

How the results depend on the processing

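The direction and the call of Mpo, Prtn3, Fcnb and Cebpe were the same under all 15 alternatives each, with log2 fold changes of 2.89 to 3.36 for Mpo, 4.05 to 4.62 for Prtn3, 6.46 to 6.98 for Fcnb and 3.11 to 3.58 for Cebpe, and adjusted p-values of at most 9.38e-06. The number of genes changed was 6045 to 7215 (6854 as reported). With library totals as the only scaling the median of all log2 fold changes was -0.41 in place of -0.06, and 2488 genes were higher and 4476 lower, against 3310 and 3544. That scaling also turned the sign of Papola (-0.13) and of Myb (-0.11); the cause was not tested. Leaving out 1 library gave log2 fold changes of 3.19 to 3.36 for Mpo, 4.2 to 4.62 for Prtn3, 6.63 to 6.98 for Fcnb and 3.33 to 3.58 for Cebpe, and 6485 to 6855 changed genes. Same-numbered KO and Con replicates did not deviate together (correlations 0.04, 0.02 and 0.01), so the numbers were not taken as pairs. The replicate block gave 6766 changed genes and log2 fold changes of 3.24 for Mpo, 4.36 for Prtn3, 6.79 for Fcnb and 3.45 for Cebpe. Fcnb rests on 34 to 45 counts per Con library, Fcna on 4 to 6 and Lpo on none, so their folds are limited by depth.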
